A study of Homo sapiens with 6 samples.

Results

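Heparan sulfate enzymes and core proteins were followed as 41 genes of the 61806 in the deposited table, chosen by gene symbol from a list of the enzymes that build, sulfate and trim heparan sulfate and of the glypicans and syndecans that carry it. All 41 symbols were found in the table. Of these genes, 25 averaged 0.5 FPKM or more and were tested, 23 had a mean of at least 1 FPKM, and 16 were too low to be tested. FPKM scales a gene's read count to its exonic size and to the library total, and it was used wherever the levels of different genes are set side by side. The filter at 0.5 FPKM fell between NDST2, with a mean of 0.525 FPKM, and GPC2, with 0.487 FPKM.

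Heparan sulfate is a long sugar chain built in the Golgi on the serines of core proteins, after a short linkage that chondroitin sulfate shares. The chain is polymerised, sulfated at several positions by successive enzymes and carried to the cell surface, where its pattern of sulfate groups binds growth factors, morphogens, chemokines and matrix proteins. Sulfatases and heparanase edit or cut it outside the cell, and in glioma the chains and their core proteins are known as co-receptors of growth factor signalling and as parts of the invaded matrix.

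U87-MG, a long-established cell line from a human glioblastoma, gave the total RNA for the libraries, which were made to ask which genes change when GRIK1, a kainate receptor subunit, is knocked down. Of the 6 libraries, 3 were the negative control, labelled NC with a wildtype genotype, and 3 were labelled GRIK1 siRNA with a GRIK1 knockdown genotype (hereafter the siRNA libraries). The methods describe siRNA carried by a lipid reagent, with no dose or time given in the sources used here, while the series description names an shRNA. The methods name 3 siRNA sequences by the same numbers as these libraries, while the text of the study says that only the siRNA numbered 1 was kept for its later experiments, so whether the numbers 1, 2 and 3 mark replicates or sequences was not settled here. No label says that the libraries came from separate cultures, so the p-values measure only the spread between these libraries.

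The total counts lay between 11099909 and 14006968. GRIK1 itself was not lower in the siRNA libraries, with counts of 15, 20 and 20 against 18, 9 and 8 in NC libraries 1, 2 and 3 (log2 fold change 0.44, adjusted p = 0.620 in edgeR without a filter, standard error 0.43). NC library 3 stood apart from the other 5 libraries, with correlations of 0.952 to 0.968 to them across the tested genes, and ribosomal protein genes took 9.38% of its counts against 4.80% to 5.51% elsewhere. Fold changes are therefore given with all 6 libraries and again without NC library 3. VIM, which U87-MG cells are known to express, was at 825 to 1076 FPKM, whereas the astrocyte genes AQP4 and ALDH1L1 were at 0 in each library. The summed level of 10 glial markers was 878 to 1153 FPKM in the NC libraries and 1069 to 1099 FPKM in the siRNA libraries. Nearly all of it was VIM and CD44, the latter at 50.8 to 71.6 FPKM. CHI3L1 was at 1.70 to 3.53 FPKM, OLIG2 at 0.41 to 0.83 and NES at 0.21 to 0.69. SOX2 was at no more than 0.12 FPKM and S100B at no more than 0.04. GFAP was at 0.05 to 0.10 FPKM in the NC libraries and 0.25 to 0.28 in the siRNA libraries. The 5 endothelial markers summed to at most 0.110 FPKM and the 6 neuron markers to 3.53 to 6.57 FPKM. The 6 immune markers summed to 3.58 to 4.40 FPKM in the NC libraries and 5.09 to 5.27 FPKM in the siRNA libraries, with AIF1 and CD3E at 0 in each library and PTPRC at no more than 0.030 FPKM. Most of the sum was CD68, at 2.11 to 3.21 FPKM in the NC libraries and 3.44 to 4.06 in the siRNA libraries (adjusted p = 0.276 in edgeR). CSF1R was at 0.87 to 1.28 FPKM and CD14 at no more than 0.44.

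With all 6 libraries, HS3ST2 and HPSE fell and no other of the 25 tested genes passed the test. HS3ST2, an enzyme that adds the rare 3-O-sulfate group, was at 0.284 of its NC level, and HPSE, the heparanase that cuts the chain, was at 0.557. Both differences were larger than the spread between libraries (adjusted p under 0.05, quasi-likelihood test of edgeR with Benjamini-Hochberg adjustment over 15870 genes). The 2 genes lower of 25 stand beside 1.48% of all tested genes that passed as lower, 1.61% that passed as higher and 3.09% that passed in either direction. HS3ST2 alone changed by more than 2-fold, beside 1.41% of all tested genes. It met the filter of 0.5 FPKM only through the NC libraries, at a mean of 0.990 FPKM against 0.300 in the siRNA libraries. With a filter of 1 FPKM it was not tested. In these bulk libraries fewer cells that express a gene and less of its RNA per cell cannot be told apart.

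Most of the other enzymes leaned lower by small amounts that did not pass. The median log2 fold change of the 25 genes was -0.22, with 6 higher and 19 lower, beside a median of -0.02 over all tested genes. The unadjusted p was under 0.05 for 10 of the 25, 2 higher and 8 lower, beside 25.1% of all tested genes. The 3 siRNA libraries all lay above the 3 NC libraries for 4 of the 25 genes (EXT2, GPC1, NDST1 and HS3ST3A1) and all below them for 11, beside 38.5% of all tested genes whose groups did not overlap, 19.4% with the siRNA libraries above and 19% below. Without NC library 3, 15 of the 25 passed, 4 higher and 11 lower, beside 35.2% of all tested genes that passed in that fit, 16.9% as higher and 18.3% as lower. The median was then -0.24 for the 25 genes and 0.01 over all genes.

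**Figure D1:**
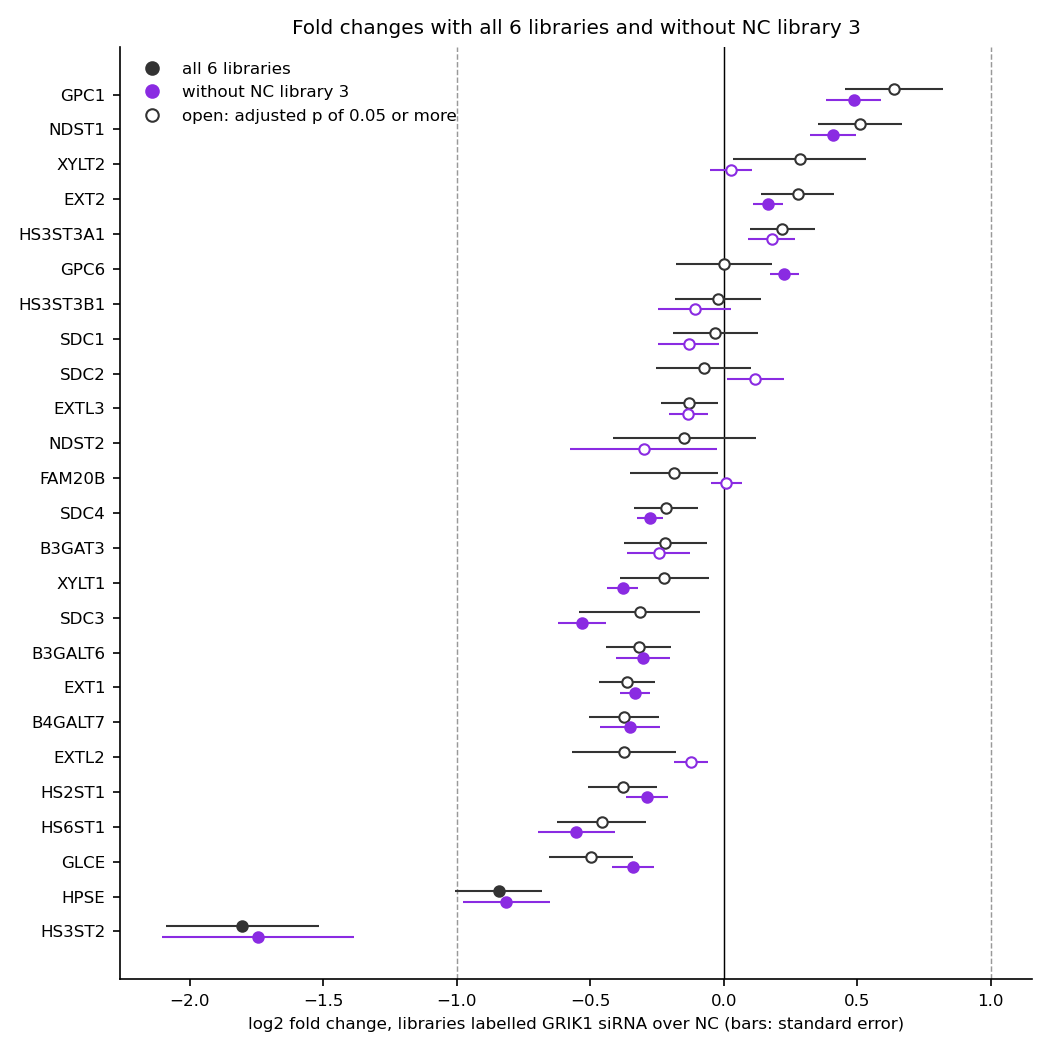
Log2 fold change of the siRNA libraries over the NC libraries (x axis) for each of the 25 tested genes (y axis, ordered by the fit on all 6 libraries), with bars of 1 standard error, from the fit on all 6 libraries (dark) and the fit without NC library 3 (purple). Filled points have an adjusted p under 0.05, which held for 2 genes in the former fit and 15 in the latter, and the dashed lines mark a 2-fold change.

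The levels spanned more than 2 orders of size between genes. SDC4, a transmembrane syndecan, had the highest mean at 104 FPKM, followed by EXTL2 at 22.7, FAM20B at 16.0 and GPC6 at 16.0 FPKM. The tested enzymes of the linkage, polymerisation, N-sulfation and epimerisation steps were at 2.87 to 22.7 FPKM apart from NDST2, while HS6ST1 was at 1.80, HPSE at 1.41, HS3ST2 at 0.645 and NDST2 itself at 0.525 FPKM. The order of neighbours such as FAM20B and GPC6 cannot be told apart, since their library values overlapped.

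**Figure D2:**
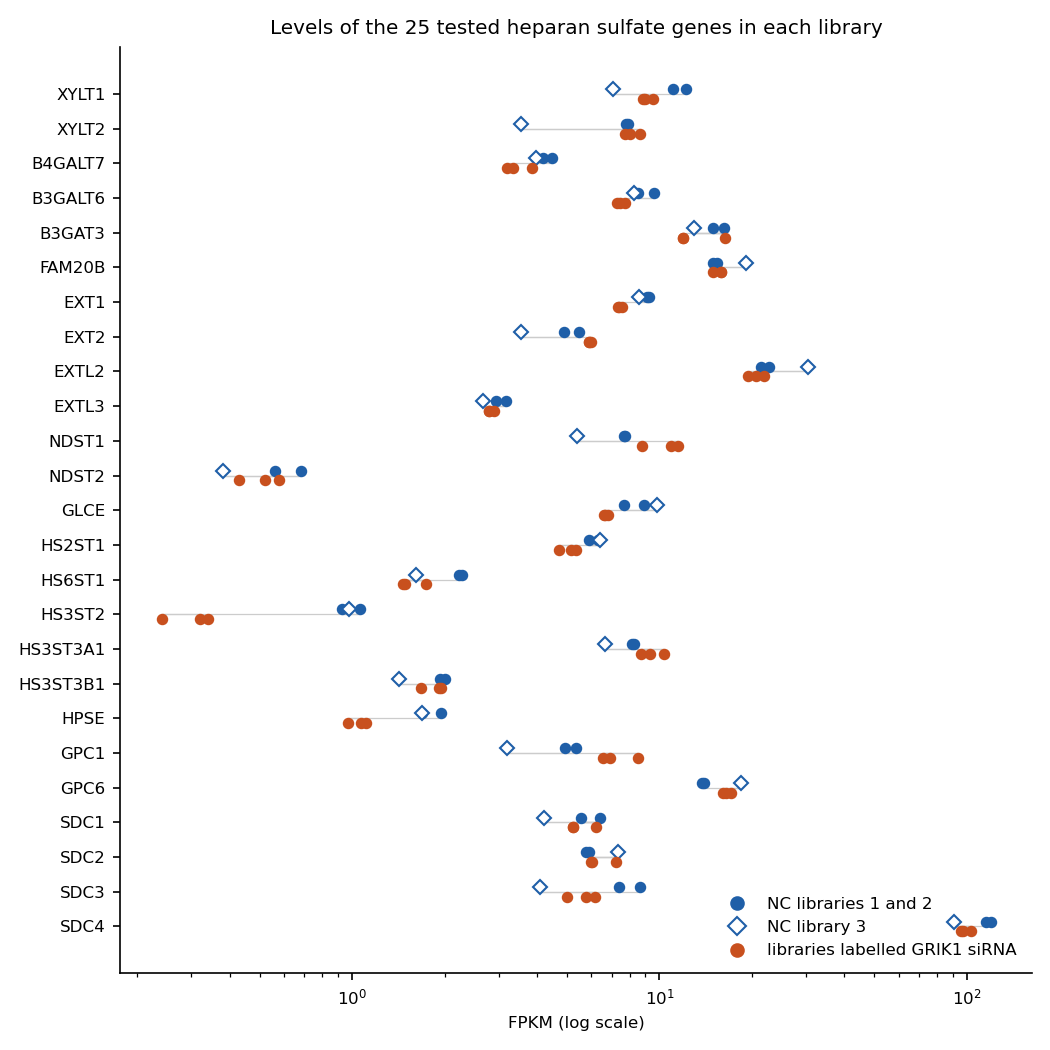
FPKM in each library (x axis, log scale) of the 25 tested genes (y axis, in the order of the pathway), with NC libraries 1 and 2 as blue points, NC library 3 as an open diamond and the siRNA libraries as orange points. SDC4 stands alone near 100 FPKM, HS3ST2 is the gene whose groups lie farthest apart, and the diamond lies away from the other NC libraries for XYLT2, SDC3 and EXTL2.

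The linkage region is started by the xylosyltransferases XYLT1 and XYLT2, extended by the galactosyltransferases B4GALT7 and B3GALT6 and the glucuronosyltransferase B3GAT3, and phosphorylated on its xylose by the kinase FAM20B. None of these 6 genes passed the test with all 6 libraries. Without NC library 3, 3 passed, all lower, beside 18.3% of all tested genes that passed as lower in that fit. B4GALT7 was measured at 21.6, 20.4 and 21.9 normalised CPM (counts set on the scaled library sizes of edgeR) in NC libraries 1, 2 and 3 and at 18.2, 15.8 and 15.3 in siRNA libraries 1, 2 and 3. B3GALT6 was at 23.6, 26.9 and 26.1 normalised CPM against 21.1, 19.9 and 20.4. For both genes each siRNA library lay below each NC library. The log2 fold change of B4GALT7 was -0.37 (adjusted p = 0.143 in edgeR, standard error 0.13) and -0.35 without NC library 3 (adjusted p = 0.0201). That of B3GALT6 was -0.32 (adjusted p = 0.163, standard error 0.12) and -0.30 (adjusted p = 0.0269).

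XYLT1 had 134, 122 and 88.3 normalised CPM in the NC libraries, against 96.7, 95.3 and 103 in the siRNA libraries. Here NC library 3 lay below all the siRNA libraries and the other NC libraries above them. Its log2 fold change was -0.22 with all libraries (adjusted p = 0.425 in edgeR, standard error 0.17) and -0.38 without NC library 3 (adjusted p = 7.33e-05). XYLT2, which does the same step, had 42.7, 42.5 and 21.8 normalised CPM against 46.1, 42.8 and 41.3. Without NC library 3 the log2 fold change of XYLT2 was 0.03 (standard error 0.08), and with it 0.29 (standard error 0.25), so that the value rested on that library. FAM20B was at 89.1, 92.9 and 130.3 normalised CPM in the NC libraries, against 87.7, 93.3 and 93.6 in the siRNA libraries, a log2 fold change of -0.19 (standard error 0.17) that became 0.01 without NC library 3. B3GAT3 had 35.5, 39.1 and 35.2 normalised CPM against 38.2, 28.0 and 28.2, with siRNA library 1 inside the NC range and the other siRNA libraries below it (log2 fold change -0.22, adjusted p = 0.403 in edgeR, standard error 0.16, and -0.24 with adjusted p = 0.120 without NC library 3).

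The chain itself is made by the copolymerase of EXT1 and EXT2, with EXTL3 adding the glucosamine that commits the linkage to heparan sulfate and EXTL2 able to cap the linkage and stop it. The copolymerase genes leaned in opposite directions. EXT1 had 96.7, 99.2 and 104 normalised CPM in the NC libraries, against 78.7, 76.7 and 77.6 in the siRNA libraries. EXT2 had 112, 101 and 82.5 normalised CPM against 120.1, 119 and 119. Neither gene's groups overlapped, EXT1 being lower and EXT2 higher in each siRNA library. The log2 fold change of EXT1 was -0.36 with all libraries (adjusted p = 0.0985 in edgeR, standard error 0.10), -0.33 without NC library 3 (adjusted p = 1.65e-04), and it passed with DESeq2 (adjusted p = 0.0283), as did 4 of the 25 genes beside 10.6% of all tested genes. EXT2 had 0.28 (adjusted p = 0.251, standard error 0.14) and 0.17 without NC library 3 (adjusted p = 0.0303).

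EXTL2 was at 90.2, 85.8 and 138 normalised CPM in the NC libraries, against 80.4, 85.6 and 76.2 in the siRNA libraries. NC library 3 was far above the rest, and siRNA library 2 nearly reached NC library 2. Its log2 fold change of -0.37 (adjusted p = 0.269 in edgeR, standard error 0.19) shrank to -0.12 without NC library 3 (adjusted p = 0.146). EXTL3 was lower in each siRNA library, by a log2 fold change of only -0.13 (adjusted p = 0.472, standard error 0.11) that was also -0.13 without NC library 3 (adjusted p = 0.179). EXTL1, a related transferase below the filter, had 3 to 9 counts a library.

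After polymerisation the N-deacetylase and N-sulfotransferase enzymes replace acetyl by sulfate groups and so set where the later enzymes act. NDST1 was the main one in these cells, at a mean of 8.65 FPKM against 0.525 FPKM for NDST2. NDST1 had 72.3, 73.2 and 57.6 normalised CPM in the NC libraries, against 81.3, 106 and 101 in the siRNA libraries. Every siRNA library was above every NC library, with siRNA library 1 the nearest to them. The log2 fold change was 0.51 with all libraries (adjusted p = 0.110 in edgeR, standard error 0.16) and 0.41 without NC library 3 (adjusted p = 0.00140). NDST2 was between 1.96 and 3.14 normalised CPM with overlapping groups, NDST3 had 3 to 15 counts a library, and NDST4 had 0 counts in each library, which allows up to 3 counts in each.

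The epimerase GLCE turns glucuronic into iduronic acid, and HS2ST1 and HS6ST1 add the 2-O and 6-O sulfates. All 3 leaned lower without overlap between the groups, beside 19% of all tested genes. Without NC library 3 all 3 passed as lower, beside 18.3% of all tested genes in that fit. GLCE had 50.4, 59.2 and 73.6 normalised CPM in the NC libraries, against 42.6, 43.1 and 44.2 in the siRNA libraries. HS2ST1 had 52.7, 49.8 and 61.1 against 38.9, 44.2 and 42.8 normalised CPM. HS6ST1 had 11.2, 11.0 and 9.01 against 7.23, 8.42 and 7.11 normalised CPM. NC library 3 was the highest NC library for GLCE and HS2ST1 and the lowest for HS6ST1. With all libraries GLCE had a log2 fold change of -0.50 (adjusted p = 0.117 in edgeR, standard error 0.16), HS6ST1 -0.46 (adjusted p = 0.154, standard error 0.17) and HS2ST1 -0.38 (adjusted p = 0.134, standard error 0.13). Without NC library 3 these were -0.34, -0.55 and -0.29 (adjusted p = 0.00272, 0.00622 and 0.00823 in that order). The other 6-O-sulfotransferases, HS6ST2 and HS6ST3, had 1 count each over the 6 libraries.

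The 3-O-sulfotransferases add the last and rarest sulfate, which creates binding sites for particular proteins. HS3ST2 (ENSG00000122254, plus strand, chr16:22814162-22916338 in GRCh38) had 27, 31 and 36 counts in the NC libraries, against 11, 8 and 11 in the siRNA libraries. That is 2.41, 2.78 and 2.90 normalised CPM against 0.864, 0.618 and 0.815. The groups were far apart, and the highest siRNA library was below the lowest NC library by more than the whole range within either group. The log2 fold change was -1.80 (adjusted p = 0.0310 in edgeR, standard error 0.29) and -1.75 without NC library 3 (adjusted p = 0.00109). HS3ST2 met the filter of 0.5 FPKM only through the NC libraries, at a mean of 0.990 FPKM against 0.300 in the siRNA libraries, and without a filter its adjusted p was 0.00529. As a ratio of summed counts, 30 against 94, HS3ST2 was at 0.283 of the NC level, with an exact 95% interval of 0.181 to 0.432 that covers counting error only. The adjusted p lay between 0.0688 and 0.219 when any 1 library other than NC library 3 was left out, with log2 fold changes from -1.89 to -1.67.

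The most abundant gene of this family, HS3ST3A1, had 35.1, 34.8 and 32.0 normalised CPM in the NC libraries, against 43.3, 36.4 and 39.0 in the siRNA libraries. Each siRNA library was above each NC library, but the log2 fold change of 0.22 did not pass (adjusted p = 0.295 in edgeR, standard error 0.12). It did not pass without NC library 3 either, at 0.18 (adjusted p = 0.131). HS3ST3B1, its close paralog, lay between 8.61 and 10.6 normalised CPM with overlapping groups, at log2 fold changes of -0.02 and, without NC library 3, -0.11. The reads of this pair are uncertain where their near-identical stretches could share them.

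In the summed FPKM of the 7 enzymes of this family, HS3ST2 made up 8.30%, 9.52% and 10.8% in the NC libraries, against 2.70%, 2.19% and 2.74% in the siRNA libraries. HS3ST3A1 made up 73.9%, 73.1% and 73.3% against 82.5%, 79.5% and 79.4%. The sum was 9.04 to 11.2 FPKM in the NC libraries and 11.0 to 12.6 FPKM in the siRNA libraries, and these sums overlapped. With 3 libraries a group, an exact permutation test of a share cannot give a p below 0.1, which was the value for both of these shares. Without NC library 3 the NC means were 8.91% for HS3ST2 and 73.5% for HS3ST3A1.

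HS3ST5, singled out after its values were seen, was below the filter, its counts being 0 throughout the NC libraries and 8, 3 and 9 in siRNA libraries 1, 2 and 3. Its mean in the siRNA libraries was 1.96-fold the limit of 3 counts per NC library, with counting error left out. In siRNA library 2 the count was at that limit. HS3ST5 passed in the edgeR fit without a filter (adjusted p = 0.0264), where 4.12% of 34080 genes passed. It did not pass there when siRNA library 1 or 3 was left out (adjusted p = 0.243 and 0.347). HS3ST5 entered that fit only through the siRNA libraries, where it is high, so its pass adds no support. HDAC2-AS2 overlaps HS3ST5 on the opposite strand with 7 to 12 counts a library. The remaining genes of the family were absent or nearly so, with HS3ST6 at 0 counts and HS3ST1 and HS3ST4 at 1 count each over the 6 libraries.

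HPSE (ENSG00000173083, minus strand, chr4:83292461-83335153 in GRCh38) encodes heparanase, which cuts heparan sulfate into fragments and frees the factors bound to it. It had 110, 96 and 121 counts in the NC libraries, against 61, 69 and 75 in the siRNA libraries. That is 9.80, 8.62 and 9.73 normalised CPM against 4.79, 5.33 and 5.56, with no overlap and little spread within either group. The log2 fold change was -0.84 (adjusted p = 0.0433 in edgeR, standard error 0.16), and -0.81 without NC library 3 (adjusted p = 9.04e-04). The ratio of summed counts, 205 against 327, was 0.557 with an exact 95% interval of 0.465 to 0.665. The adjusted p was between 0.0899 and 0.233 when any 1 of the other 5 libraries was left out, with log2 fold changes from -0.90 to -0.78.

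The other trimming genes were below the filter, and none passed in the edgeR fit without it (adjusted p = 0.176 for SULF1, 0.620 for SULF2 and 0.620 for HPSE2). SULF1 and SULF2 encode sulfatases that remove 6-O-sulfate at the cell surface. SULF1 had 10 counts in NC library 3 and 0 counts in each other library. SULF2 had 10, 3 and 1 counts in the NC libraries, against 8, 5 and 14 in the siRNA libraries, and NCOA3 overlaps it on the opposite strand with 852 to 1119 counts, so that reads of the 2 genes cannot be told apart without strand. HPSE2, a relative of heparanase without its cutting activity, had 1 count over the 6 libraries.

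**Figure D3:**
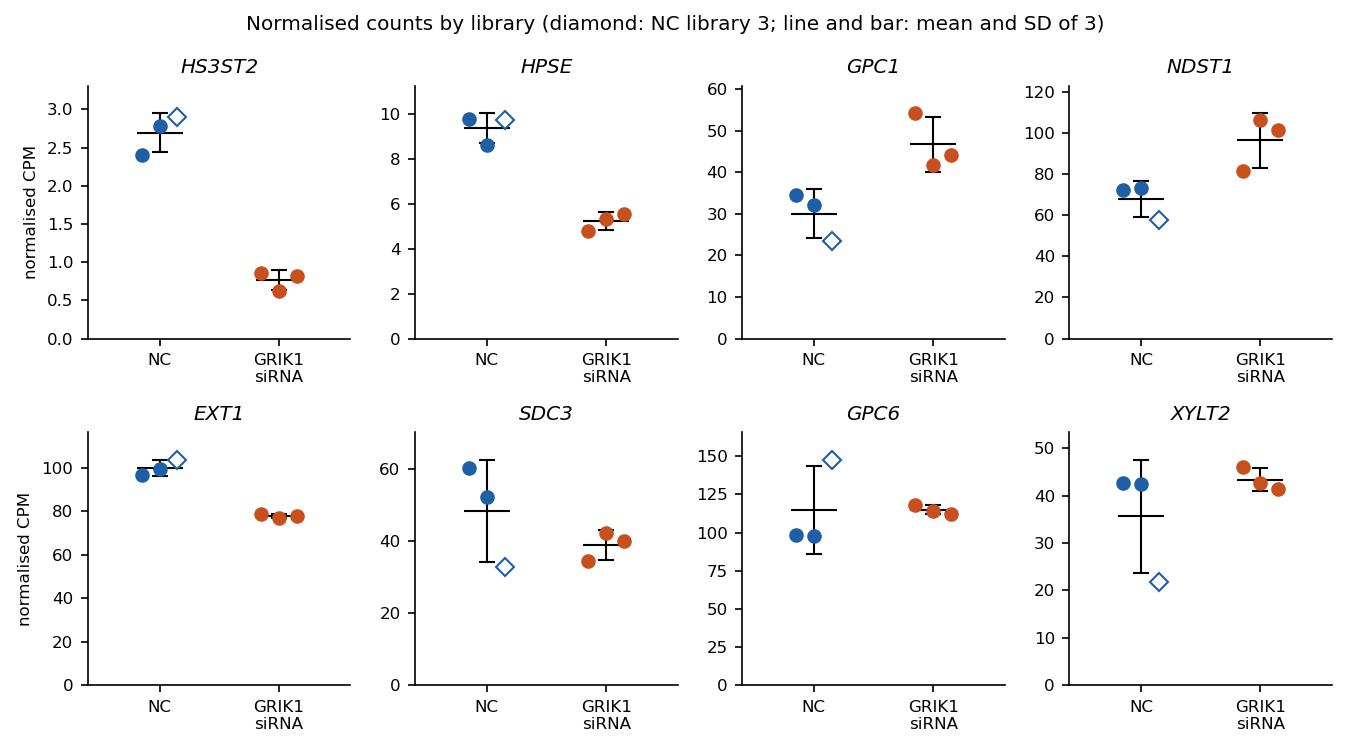
Normalised CPM (y axes, each from 0) of 8 genes in the NC and siRNA libraries, with each library as a point, NC library 3 as an open diamond, the mean as a line and the SD of 3 libraries as a bar. HS3ST2, HPSE and EXT1 are lower in each siRNA library, GPC1 and NDST1 are higher, and for SDC3, GPC6 and XYLT2 the diamond lies away from the other NC libraries, at 32.7, 148 and 21.8 normalised CPM.

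The promoters of HS3ST2 and HPSE, which fell, and of GPC1, which had the largest positive log2 fold change of the 25 tested genes, are shown to compare their start regions. RefSeq sequences of GRCh38.p14, from 250 bases before to 50 bases after the gene start, were found for 36 of the 41 genes, and 21 of these began at the deposited gene end. The 3 sequences are HS3ST2 at chr16:22813912-22814211 on the plus strand, HPSE at chr4:83335104-83335403 on the minus strand and GPC1 at chr2:240435413-240435712 on the plus strand, each written along the gene. Capitals mark the matches, on either strand, to the motifs searched.
HS3ST2: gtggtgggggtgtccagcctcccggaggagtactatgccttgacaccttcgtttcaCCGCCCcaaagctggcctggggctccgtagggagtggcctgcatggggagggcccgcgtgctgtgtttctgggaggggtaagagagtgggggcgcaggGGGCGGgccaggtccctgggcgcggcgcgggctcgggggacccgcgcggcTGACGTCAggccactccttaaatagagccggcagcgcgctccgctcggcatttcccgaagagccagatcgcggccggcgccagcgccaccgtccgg
HPSE: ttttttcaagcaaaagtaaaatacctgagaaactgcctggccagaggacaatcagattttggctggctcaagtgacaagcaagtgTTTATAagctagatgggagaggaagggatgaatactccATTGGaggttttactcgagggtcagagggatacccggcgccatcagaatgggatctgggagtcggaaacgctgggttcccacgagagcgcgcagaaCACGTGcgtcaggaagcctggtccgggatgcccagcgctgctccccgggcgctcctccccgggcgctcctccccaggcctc
GPC1: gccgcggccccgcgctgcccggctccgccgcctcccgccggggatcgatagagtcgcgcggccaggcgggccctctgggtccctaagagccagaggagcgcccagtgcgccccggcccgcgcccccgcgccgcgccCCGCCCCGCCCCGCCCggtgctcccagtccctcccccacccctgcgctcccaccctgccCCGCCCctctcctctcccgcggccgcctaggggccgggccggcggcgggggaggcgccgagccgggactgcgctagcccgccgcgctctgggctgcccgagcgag

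The motifs searched, on both strands, were the GC box (GGGCGG), the CCAAT box (CCAAT), the TATA box (TATAAA), the E box (CACGTG), the AP-1 site (TGANTCA), the cyclic AMP response element (TGACGTCA, chosen after the HS3ST2 sequence was seen) and the E2F site (TTTCGCGC or TTTGGCGC). Matches of the GC box may overlap each other. A GC box stood in 28 of the 36 promoters, or 77.8%, against 44.6% of 27305 promoters of the same length, and the median GC content was 69.3% against 58.3%. The CCAAT box stood in 27.8% against 35.7%, the TATA box in 5 of 36 against 3264 of 27305, the E box in 11.1% against 7.43%, the AP-1 site in 5.56% against 7.76% and the E2F site in 2.78% against 1.18%. The promoter of HS3ST2 held 2 GC boxes and 1 cyclic AMP response element. That element stood in 3 of the 36 promoters (8.33%), those of HS3ST2, HS3ST3A1 and B3GAT3, against 1.98% of all. HS3ST2 is counted among them although the element was chosen from its sequence, so these shares do not test an excess. HPSE held 1 TATA box and 1 CCAAT box, both matched only on the strand opposite to the gene, 1 E box and no GC box. GPC1 held 4 GC boxes in a window of 83.3% GC. The matches describe these windows and are not shown to be bound.

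Glypicans are tied to the outer membrane by a lipid anchor, and GPC1 and GPC6 were the only 2 of the 6 above the filter. GPC1 (ENSG00000063660, plus strand, chr2:240435663-240468076 in GRCh38) had the largest log2 fold change upward of the 25 tested genes. It was at 34.5, 32.1 and 23.4 normalised CPM in the NC libraries, against 54.2, 41.7 and 44.1 in the siRNA libraries. Each siRNA library lay above each NC library, and NC library 3 was the lowest of all. The log2 fold change was 0.64 with all libraries (adjusted p = 0.0988 in edgeR, standard error 0.18), short of the threshold, 0.49 without NC library 3 (adjusted p = 0.00137), and 0.64 with DESeq2 (adjusted p = 0.0319). GPC1-AS1 overlaps GPC1 on the opposite strand, with 3 to 4 counts per NC library but 6, 28 and 21 in siRNA libraries 1, 2 and 3, where GPC1 had 540 to 690 counts. A part of its reads in the GPC1 counts was not tested.

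GPC6, the more abundant glypican, had 98.6, 98.1 and 148 normalised CPM in the NC libraries, against 118, 114 and 113 in the siRNA libraries. The siRNA libraries were above NC libraries 1 and 2 and below NC library 3, so that the log2 fold change was 0.00 with all libraries (adjusted p = 0.996 in edgeR, standard error 0.18) and 0.23 without NC library 3 (adjusted p = 0.00306, standard error 0.05). GPC2 fell just short of the filter, with 27, 28 and 5 counts in the NC libraries, against 28, 24 and 23 in the siRNA libraries, NC library 3 again standing apart. GPC5 had 7 to 13 counts a library, GPC4 had 1 to 2, and GPC3 had 1 count over the 6 libraries.

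Syndecans cross the membrane and link the outer chains to the cytoskeleton, and all 4 were tested. SDC4 had 299, 312 and 267 normalised CPM in the NC libraries, against 247, 263 and 245 in the siRNA libraries. The siRNA libraries were all lower, with siRNA library 2 close to NC library 3. Its log2 fold change was -0.22 (adjusted p = 0.296 in edgeR, standard error 0.12) and -0.28 without NC library 3 (adjusted p = 2.13e-04). SDC3, a syndecan of the nervous system, had 60.3, 52.2 and 32.7 normalised CPM against 34.4, 42.3 and 39.9. NC library 3 was the lowest of the 6 for SDC3, and the other NC libraries were the highest. Its log2 fold change of -0.32 (adjusted p = 0.402, standard error 0.23) moved to -0.53 without that library (adjusted p = 2.01e-04). SDC1 and SDC2 had log2 fold changes of -0.03 and -0.08 (standard errors 0.16 and 0.18) with overlapping groups, and the value of SDC2 changed sign to 0.12 without NC library 3.

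Among the 10 core proteins, SDC4 made up most of the message. Its share of their summed FPKM was 74.1%, 75.2% and 70.7% in the NC libraries, against 69.5%, 71.0% and 69.6% in the siRNA libraries. The share of GPC1 was 3.43%, 3.10% and 2.49% against 6.11%, 4.51% and 5.01%. GPC1 took a larger share in each siRNA library than in any NC library, while for SDC4 NC library 3 lay among the siRNA libraries. GPC6 took 8.98%, 8.67% and 14.4% against 12.2%, 11.3% and 11.7%. The mean share of GPC1 was 2.20 percentage points higher (exact permutation p = 0.1, the smallest possible) and that of SDC4 was 3.32 points lower (exact permutation p = 0.2). Without NC library 3 these differences were 1.94 points higher and 4.64 points lower, from NC means of 3.27% and 74.7%. The summed FPKM of the core proteins was 128 to 159 in the NC libraries and 138 to 145 in the siRNA libraries.

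**Figure D4:**
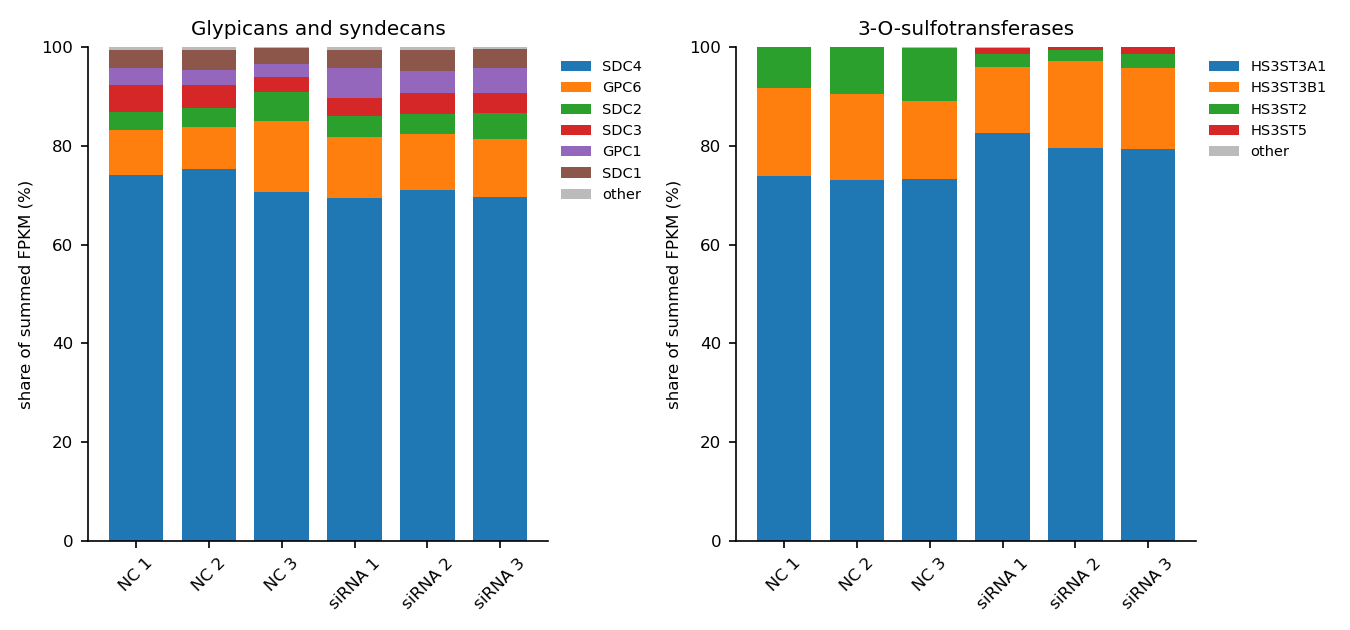
Share of summed FPKM (y axis, percent) of the 10 glypicans and syndecans (left) and of the 7 3-O-sulfotransferases (right) in each library (x axis), with a colour for each gene and the lowest genes joined as other. SDC4 holds 69.5% to 75.2% of the left bars, and the green HS3ST2 segment of the right bars narrows from 8.30% or more in the NC libraries to 2.74% or less in the siRNA libraries.

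The genes around the pathway were taken as 7 lists of 91 genes, 69 of them tested. With all 6 libraries 7 of the 69 passed, 4 higher and 3 lower, beside 3.09% of all tested genes, with a median log2 fold change of -0.02. Without NC library 3 the count was 45 of 69, 20 higher and 25 lower, beside 35.2% of all tested genes. In that fit the 7 genes again passed in the same directions. SLC35B2, which carries the sulfate donor into the Golgi, had 109, 106 and 137 normalised CPM in the NC libraries, against 64.9, 59.1 and 59.1 in the siRNA libraries. It was lower in each siRNA library, with a log2 fold change of -0.94 (adjusted p = 0.0303 in edgeR, standard error 0.14), and it was the only 1 of 6 donor genes to pass with all libraries. Its log2 fold change was -0.81 without NC library 3. SLC35B3, of the same donor list, leaned the other way at 0.15 (adjusted p = 0.483 in edgeR). Without NC library 3 it was at 0.24 (adjusted p = 0.0452). The donor synthase PAPSS1 had a log2 fold change of -0.0012 (adjusted p = 0.996) and 0.04 without NC library 3 (adjusted p = 0.694 in edgeR). PAPSS2 had 36.1, 34.2 and 48.6 normalised CPM against 45.6, 48.9 and 43.3, so that NC library 3 lay among the siRNA libraries. Its log2 fold change was 0.21 (adjusted p = 0.428 in edgeR) and 0.39 without NC library 3 (adjusted p = 0.00143).

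In nucleotide sugar supply, 2 of 12 genes passed, in opposite directions. UXS1, which makes the UDP-xylose that starts the linkage, had 53.5, 51.3 and 52.4 normalised CPM against 34.7, 35.3 and 35.6. PGM3, an enzyme of UDP-N-acetylglucosamine synthesis, had 67.1, 65.0 and 86.2 normalised CPM against 126, 124 and 124. Their groups did not overlap, UXS1 being lower and PGM3 higher in each siRNA library. Their log2 fold changes were -0.57 and 0.78 (adjusted p = 0.0393 and 0.0387 from edgeR), and -0.57 and 0.92 without NC library 3. Of the 9 lysosomal genes that break the chain down, NAGLU, an N-acetylglucosaminidase, passed as lower at a log2 fold change of -0.88 (adjusted p = 0.0385 from edgeR), and -1.01 without NC library 3. It had 41.3, 41.8 and 31.3 normalised CPM against 22.8, 19.8 and 19.5. ARSG, a sulfatase, had 15.6, 13.9 and 13.5 normalised CPM against 27.1, 28.9 and 29.4. It passed as higher at a log2 fold change of 0.99 (adjusted p = 0.0240 from edgeR), and 0.95 without NC library 3, and neither gene's groups overlapped.

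Among 8 tested genes of other carriers and regulators, PXYLP1, the phosphatase that reverses FAM20B, passed as higher, with 11.9, 12.1 and 12.4 normalised CPM in the NC libraries, against 18.5, 20.3 and 19.2 in the siRNA libraries. The groups of PXYLP1 did not overlap, and its log2 fold change was 0.67 (adjusted p = 0.0408 in edgeR, standard error 0.12), and 0.68 without NC library 3. The matrix carriers agrin and perlecan did not pass with all libraries and passed without NC library 3, in which both were far below the other NC libraries. AGRN had 103, 96.3 and 29.1 normalised CPM against 70.2, 61.4 and 61.5, a log2 fold change of -0.24 (adjusted p = 0.733 in edgeR) that was -0.63 without NC library 3 (adjusted p = 1.63e-06). HSPG2 had 9.35, 8.98 and 3.38 normalised CPM against 16.4, 13.2 and 17.7, with no overlap, a log2 fold change of 1.13 (adjusted p = 0.115 in edgeR) that was 0.79 without NC library 3 (adjusted p = 3.88e-04). Of 12 tested chondroitin sulfate enzymes 1 passed, the sulfotransferase CHST3, with 17.0, 17.3 and 16.2 normalised CPM against 28.8, 26.9 and 24.5 and a log2 fold change of 0.66 (adjusted p = 0.0416 from edgeR, and 0.64 on the log2 scale without NC library 3). With all libraries edgeR passed 0 of 4 chondroitin sulfate core proteins and 0 of 18 heparan sulfate binding factors and receptors. An unadjusted p was under 0.05 for 4 of those 18 and for 1 of those 4, beside 25.1% of all tested genes, and 3 and 1 passed with DESeq2, beside 10.6%. The binding factor nearest the threshold was TGFB1, at -0.56 (adjusted p = 0.0503 from edgeR) and -0.61 without NC library 3, named after its value was seen. Genes of both lists passed in edgeR without NC library 3, beside 35.2% of all tested genes. VEGFA was then at -0.45 (adjusted p = 1.94e-07), FN1 at 0.47 (adjusted p = 7.70e-07) and VCAN at 0.53 (adjusted p = 1.59e-06). FGF2 and CSPG4 did not pass in that fit (adjusted p = 0.224 and 0.253). These genes too were named after their values were seen.

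**Figure D5:**
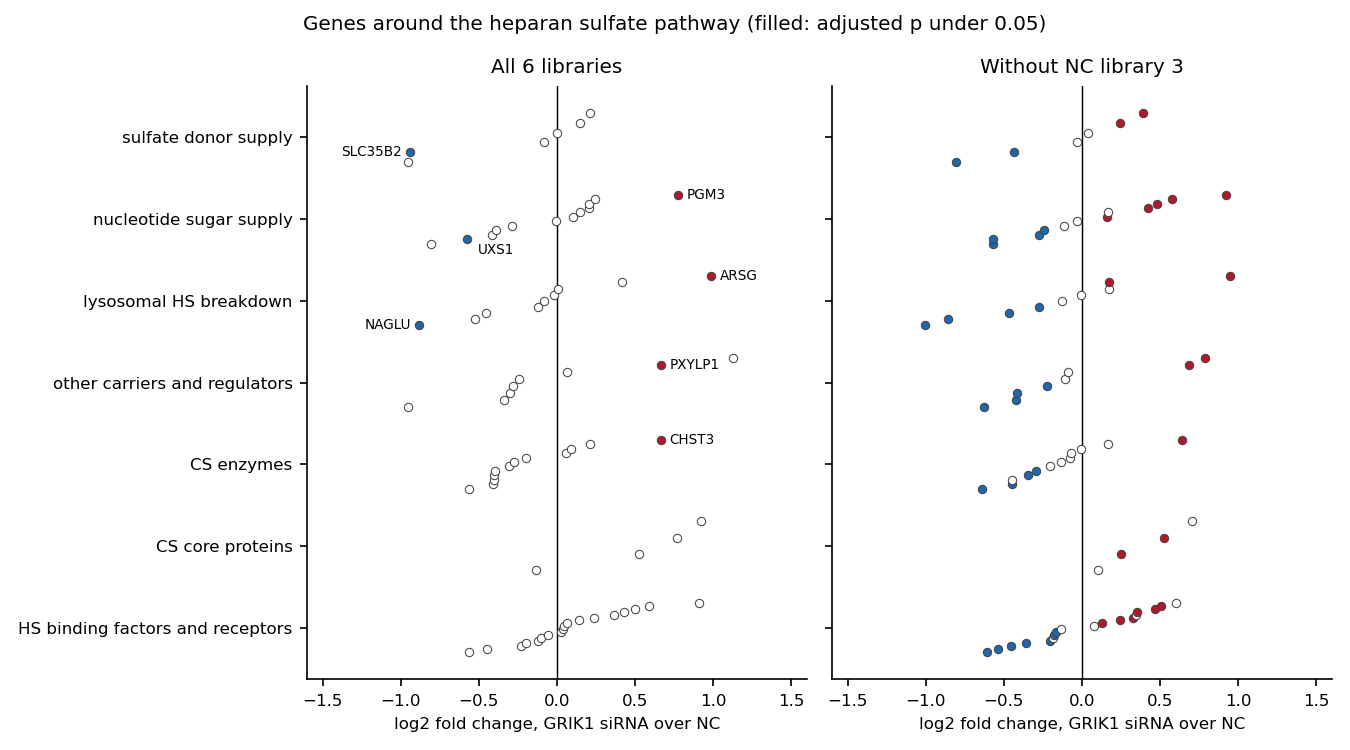
Log2 fold change (x axes) of the 69 tested genes of the 7 surrounding lists (y axis, HS for heparan sulfate and CS for chondroitin sulfate), with all 6 libraries on the left and without NC library 3 on the right, each point a gene. Filled points passed the test, blue as lower and red as higher, and number 7 on the left and 45 on the right.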

How the data were processed

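Total RNA of 6 U87-MG libraries, 3 labelled NC and 3 labelled GRIK1 siRNA, was analysed, each library being grouped by its label. The authors deposited whole-number read counts per gene, without normalization, and FPKM values that they computed from those counts, the exonic size and the library total, a formula that gave 100% of the FPKM values within 0.0051. The submitters' processing notes name GRCh38, HISAT2, HTSeq and cutadapt 1.9.1. The strand setting was not given in the sources used here. Coordinates are those of the table, and all 41 genes overlapped their GENCODE 29 entry, 10 with the same start and end.

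The counts were tested in R 4.3.3 by edgeR 4.0.16, quasi-likelihood (TMM scaling, no covariate, Benjamini-Hochberg adjustment) over the 15870 genes with a mean FPKM of at least 0.5. A gene passed at an adjusted p under 0.05. Alternatives used median-of-ratios scaling, no filter, a mean FPKM of at least 1, a fold threshold of 1.5, DESeq2 1.42.0, limma 3.58.1 on log2(FPKM + 1) or log2(FPKM + 0.1) and with sample quality weights, each library left out, and the replicate number as a block. For the core protein shares, CPM not divided by length was used as well. The deviations of same-numbered libraries were nearly uncorrelated, which does not settle what the numbers mark. A count of 0 allows up to 3 counts.

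The genes and lists were chosen with earlier results of these data known. Values per library are given for the genes that passed with all libraries or without NC library 3, the 12 with the highest mean FPKM, the largest rise and fall, and the listed pathway genes that passed, and PAPSS2, AGRN and HSPG2, chosen after their values were seen.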

Additional observations from a re-analysis of the deposited data

How the results depend on the processing

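With all 6 libraries 2 of the 25 genes passed in edgeR, and the count was 1 with a mean FPKM of at least 1 (HPSE, as HS3ST2 is then below the filter), 4 with DESeq2, 1 with limma on log2(FPKM + 1), 0 on log2(FPKM + 0.1) (7 with an unadjusted p under 0.05), 16 with sample quality weights and 12 with DESeq2 without NC library 3. Leaving out 1 library at a time gave 0 to 15 genes, 15 without NC library 3 and 0 without any other 1, where 5 to 9 had an unadjusted p under 0.05. Of the genes beyond 2-fold, 1 in edgeR, 2 were called without a filter, 0 with a mean FPKM of at least 1, 0 and 0 with limma at the 2 pseudocounts, 2 beyond 1.5-fold, and 0 to 1 with 1 library left out. The surrounding lists had 7 genes that passed, against 12 without a filter, 15 with DESeq2, 3 and 3 with limma, 46 with sample quality weights, 36 with DESeq2 without NC library 3 and 0 to 45 with 1 library left out. Of all genes in the fit, 3.09% passed in edgeR with all 6 libraries and 4.12% without a filter. The share was 10.6% with DESeq2 and 35.2% in edgeR without NC library 3. The other counts of this paragraph have no such share beside them and are not read as a result about these genes. With the replicate number as a block, 0 of the 25 genes (8 with an unadjusted p under 0.05), 0 beyond 2-fold and 0 of the surrounding genes passed. The deviations of same-numbered libraries from their group means had correlations of -0.070, 0.044 and -0.043. These cannot settle what the numbers mark, since the groups are small and NC library 3 stands apart. The adjusted p ran from 1.21e-04 to 0.219 for HS3ST2 and from 3.80e-04 to 0.233 for HPSE over the edgeR, DESeq2 and limma alternatives above, both staying lower in each, and was 7.77e-05 and 9.11e-05 in edgeR with neither a filter nor NC library 3.

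The median log2 fold change of the 25 genes, -0.22, was -0.11 in both limma fits and -0.24 to -0.17 with 1 library left out. Signs turned only for log2 fold changes that had not passed with all 6 libraries. GPC6 was among them, although it passed without NC library 3. FAM20B became 0.0063 with sample quality weights and 0.012 with DESeq2 without NC library 3 (-0.28 to 0.010 with 1 library left out), NDST2 ranged from -0.30 to 0.018, GPC6 from -0.10 to 0.23 and SDC1 from -0.13 to 0.083 with 1 left out, and GPC6 was -0.031 without a filter. HS3ST3B1 became 0.0012 with a mean FPKM of at least 1, 0.039 and 0.062 with limma at pseudocounts of 1 and 0.1, and -0.11 to 0.045 with 1 library left out. With limma SDC1 became 0.049 and 0.060 and SDC2 0.023 and 0.026, and SDC2 was 0.12 with sample quality weights and with DESeq2 without NC library 3. The difference in the share of the core proteins, 0.200 percentage points for SDC2 and -0.464 for SDC3, ranged from -0.146 to 0.865 and from -1.10 to 0.0745 with 1 library left out. The cause was not tested. HS3ST2 rests on 8 to 36 counts a library.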
